A study of Mus musculus with 24 samples.

Results

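Opioid receptors pass their signal to the inhibitory G proteins. A receptor that has bound morphine loads the alpha subunit of a Gi, Go or Gz heterotrimer with GTP, and the freed alpha and beta-gamma subunits slow adenylyl cyclase, open GIRK potassium channels and close presynaptic calcium channels. RGS proteins end the signal by speeding GTP hydrolysis on the alpha subunit, and the beta-arrestins bind the phosphorylated receptor, uncouple it and draw it into the cell. The 10 genes of this coupling and desensitization machinery on the hippocampal mRNA arrays were Gnai1, Gnai2, Gnai3, Gnao1 and Gnaz (alpha subunits), Rgs4, Rgs7 and Rgs9 (RGS proteins), and Arrb1 and Arrb2 (beta-arrestins). They were matched by gene name among the 36163 names on the array, and all 15 of their probesets were kept out of 55681 measured.

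The question was whether morphine given during neonatal stress altered hippocampal mRNA. All pups were labelled male C57BL/6 mice, and they were killed on P9. Untreated controls (Con) stayed with the dam, while the MS2 and MS5 pups were given 2 or 5 mg/kg morphine from P5 onward together with daily separation from the dam and repeated apnea. There was no group with stress alone or morphine alone, so a contrast with Con spans both, and only MS5 versus MS2 holds the stress protocol constant. Each group had 5 arrays, 1 pup per array with both hippocampi pooled, and arrays are named by group and the replicate number of the labels (Con 19, MS2 5). Levels are log2 values of background-adjusted, quantile-normalized 1-colour signal, and fold changes are differences of these (log2). A level on 1 probeset says nothing about the level on another.

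Some arrays stood apart before any comparison. MS2 4 correlated least with the other arrays (mean r of 0.990, against 0.995 to 0.997) and had the lowest mean over 12 markers of hippocampal neurons (10.3 against 11.9 to 12.5 elsewhere) with the highest over 12 hypothalamic and thalamic markers (10.5 against 8.30 to 9.56). All 12 hippocampal markers were well above background on all 15 arrays. MS2 5 was dim, with a median spot signal of 58.2 against 121 to 154. MS5 9 carried Xist at 11.3 against at most 6.08 on the other 14, although labelled male. Over 10 choroid plexus markers the array means ran from 10.9 to 11.8 in Con, 11.0 to 11.6 in MS2 and 8.46 to 11.4 in MS5. The arrays were run on 2 slides that each held all 3 groups.

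Each probeset is a single 60-base oligonucleotide spot, and all 15 were well above background on all 15 arrays. Because several members were read by more than 1 probe, and the readings differed, the first 30 bases of the probes that matter below are given 5′ to 3′, with mm9 positions from the array design. The capitals mark bases common to the first pair of Rgs9 probes, which overlap by 54 bases and are therefore nearly 1 measurement.
Rgs9 variant 1, probe a (chr11:109086669-109086728, minus strand): GTGGGCCAGAAGATATCCCTTGCTGCCTTA
Rgs9 variant 1, probe b (chr11:109086675-109086734, minus strand): aggcatGTGGGCCAGAAGATATCCCTTGCT
Rgs9 variant 2 (chr11:109096382-109096441, minus strand): tatagactttgctatctcagcactcagggg
Rgs4 probe a (chr1:171672488-171672547, minus strand): tcatgaactgcaaagccctctttggttttc
Rgs4 probe b (chr1:171671609-171671668, minus strand): gcttccgacgaaacacacaaatcttaatga
Gnao1 variant A (chr8:96493228-96493287, plus strand): ctgccagcctacttctctaatggattcctg
Gnao1 variant B (chr8:96480068-96480127, plus strand): ggacaccaacaacatccaattcgtctttga
Gnaz probe a (chr10:74477789-74477848, plus strand): cgcggtctacatccaacgtcagttcgagga
Gnaz probe b (chr10:74454041-74454100, plus strand): tcatctgcccgtcacaccagcccacgtttg
Gnai3 (chr3:107910599-107910658, minus strand): agaactgcttcagaagcaagccacggtgat
Arrb2 (chr11:70253715-70253774, plus strand): ctgaagggaatgaaggatgatgactgtgat
The variant names are those of the transcripts to which the array design assigns the probes. Among the 99 pairs of probes to different members the longest shared run was 8 bases, so no pair of members was read through the same sequence. Positions within exons or untranslated regions were not analysed here.

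No member passed the study's threshold, a fold change above 1.5 at an unadjusted p below 0.05. The count was 0 of 15 probesets for MS2 versus Con, where 0.0233% of all probesets passed, 0 of 15 for MS5 versus Con, where 0.228% passed, and 0 of 15 for MS5 versus MS2, where 0.129% passed. At an unadjusted p under 0.05 alone (limma), Gnai3 was lower and Gnaz probe b and Arrb2 were higher in MS2 than in Con, 3 of 15 against 4.17% of all probesets. Rgs4 probe a alone was higher in MS5 than in Con, 1 of 15 against 3.91% of all probesets. Arrb2 alone differed between MS5 and MS2, lower in MS5, 1 of 15 against 3.97% of all probesets. The smallest adjusted p among the members was 0.970, 1.00 and 1.00 in these contrasts, and limma called 0 of the 55681 probesets at an adjusted p under 0.05 in any of them.

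The treated and control arrays overlapped for every member. Complete separation of the groups was seen for 0 of 15 probesets in each contrast, while 0.699% of all probesets were separated in MS2 versus Con, 0.832% in MS5 versus Con and 0.625% in MS5 versus MS2. The median fold change (log2) of the members was 0.07 for MS2 versus Con, 0.09 for MS5 versus Con and 0.04 for MS5 versus MS2, beside medians of -0.0017, 0.00033 and 0.0011 over all probesets. Estimates were above 0 for 11, 11 and 10 of the 15 probesets. The 95% confidence interval of the difference stayed inside 1.5-fold in both directions for 13 probesets in MS2 versus Con, 11 in MS5 versus Con and 12 in MS5 versus MS2. The wider intervals were those of both Rgs9 variant 1 probes in all 3 contrasts, of both Rgs4 probes in MS5 versus Con and of Rgs4 probe b in MS5 versus MS2.

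**Figure D1:**
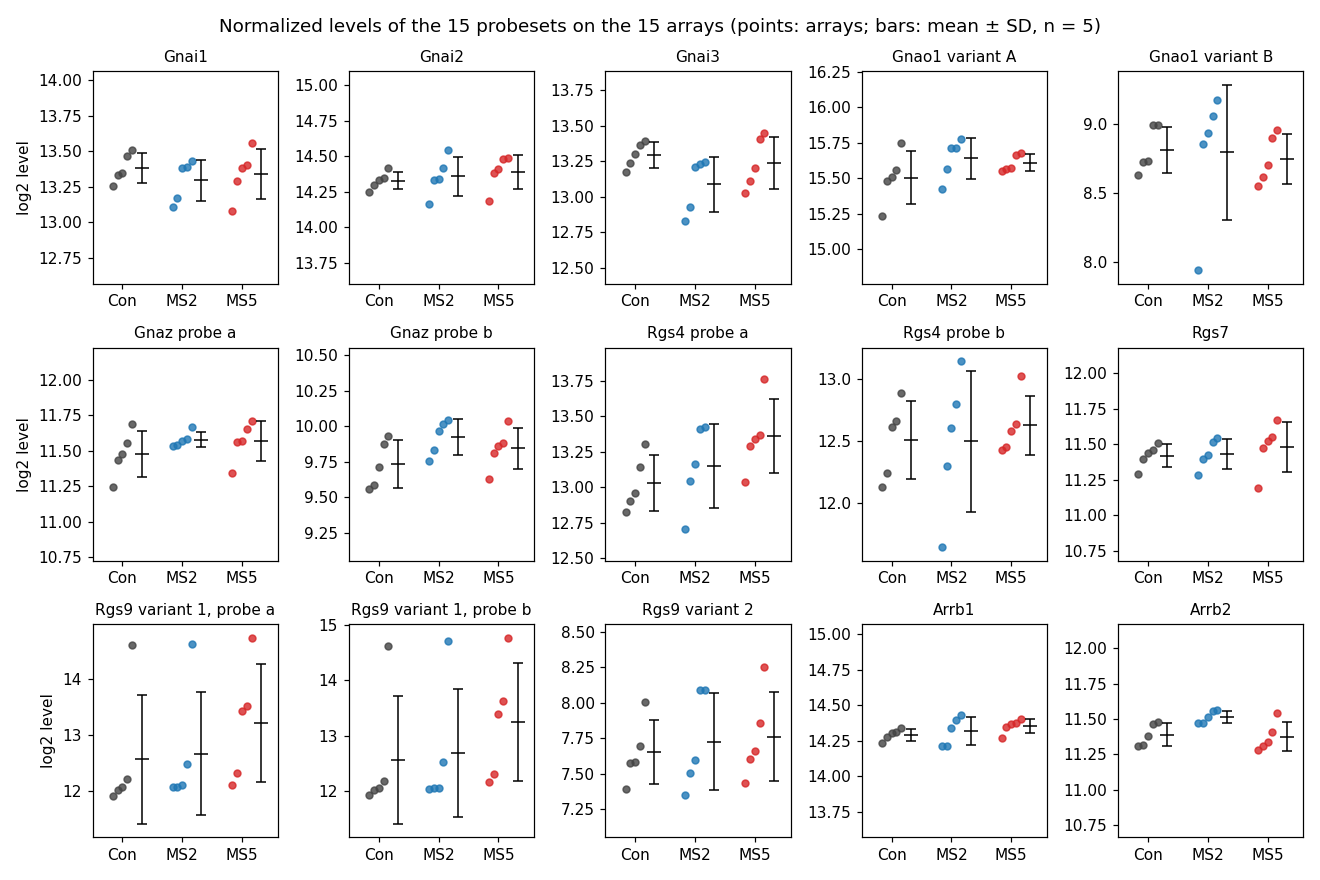
Normalized level (log2) of each of the 15 probesets on the 5 arrays of each group, sorted by value within a group, with the group mean and SD (n = 5) as a bar beside the points. Each panel has its own axis range. The groups overlap in every panel, and the Rgs9 variant 1 panels hold single arrays near 14.6 to 14.8 in each group.

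**Figure D2:**
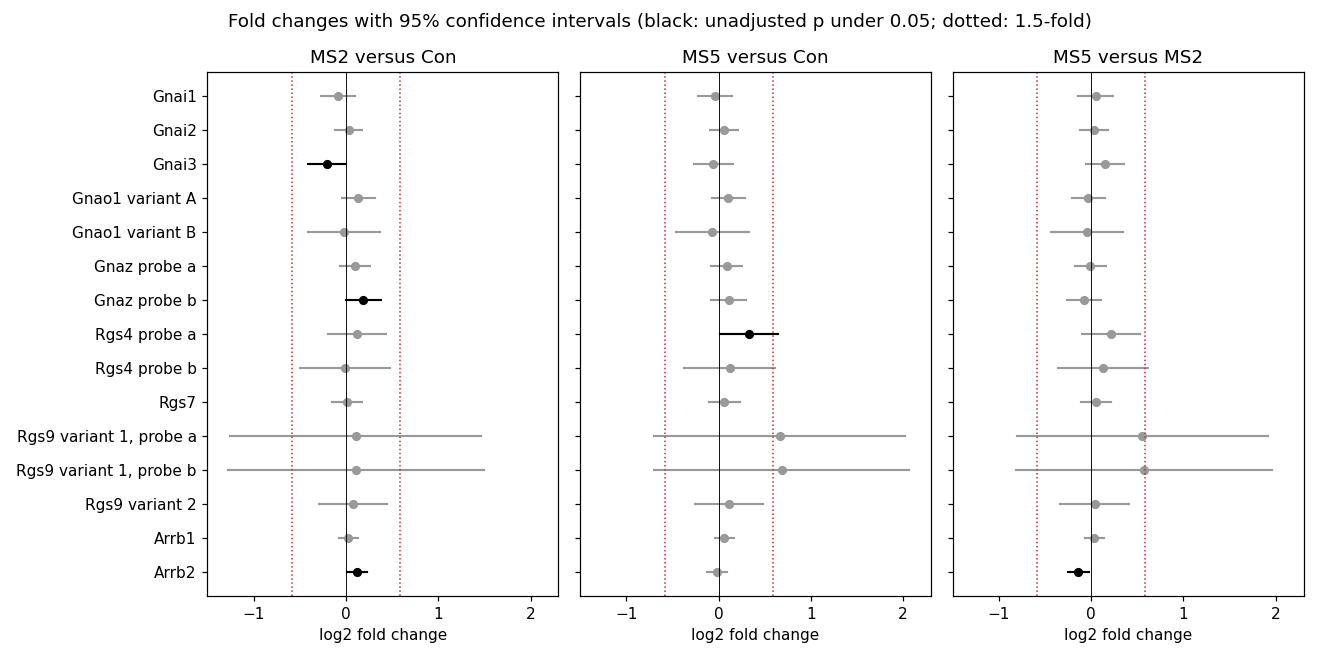
Fold change (log2) with its 95% confidence interval from limma for the 15 probesets in the 3 contrasts. Filled black symbols have an unadjusted p under 0.05, and the dotted lines mark 1.5-fold. All 5 black symbols lie inside the dotted lines, and only the Rgs9 variant 1 intervals reach far outside them in each contrast.

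Among the alpha subunits, Gnai1, Gnai2 and Gnai3 encode the closely related Gi proteins that inhibit adenylyl cyclase. For Gnai1 the mean level was 13.38 ± 0.10 in Con, 13.30 ± 0.14 in MS2 and 13.34 ± 0.18 in MS5 (SD, n = 5 each), so the groups differed by less than their spread. Gnai2 was at 14.33 ± 0.06, 14.36 ± 0.14 and 14.39 ± 0.12 (SD, n = 5 each), again with differences inside the spread. Without MS2 4, MS2 5 and MS5 9 its MS5 versus Con difference of 0.06 became 0.11 (limma p of 0.0254). This removal was chosen after seeing the data and takes out the lowest MS5 array of Gnai2.

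Gnai3 read 13.18, 13.40, 13.36, 13.30 and 13.24 on Con 15 to Con 19 in that order. In the MS2 group it read 13.24 on MS2 1, 13.21 on MS2 3, 12.93 on MS2 4, 12.83 on MS2 5 and 13.23 on MS2 7. In the MS5 group the values were 13.11 on MS5 8, 13.41 on MS5 9, 13.03 on MS5 12, 13.45 on MS5 13 and 13.20 on MS5 14. The lower MS2 mean came with 2 low arrays, MS2 4 and MS2 5, which are also the array that stood apart and the dim one, while the other 3 lay within the control range. The fold change (log2) of MS2 versus Con was -0.21 ± 0.10 (SE), with an unadjusted p of 0.0491 and an exact permutation p of 0.0635 (two-sided). Without MS2 4 it was -0.17, without MS2 5 it was -0.14, and without MS2 4, MS2 5 and MS5 9 it was -0.07 (limma p of 0.115, 0.144 and 0.425). The difference was -0.05 on slide 1 (3 arrays against 3) and -0.44 on slide 2 (2 against 2, the MS2 arrays there being MS2 4 and MS2 5). Leaving out 1 array at a time gave -0.25 to -0.14, with a p above 0.05 without any one of Con 16, Con 17, Con 18, Con 19, MS2 4 or MS2 5. In MS5 versus Con the estimate was -0.06 ± 0.10 (SE).

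Gnao1 encodes Go, the most abundant G protein of the brain, and its probes read splice forms that differ at the end of the coding sequence. The variant A probeset, at 15.51 ± 0.18 in Con, 15.64 ± 0.14 in MS2 and 15.61 ± 0.06 in MS5 (SD, n = 5 each), showed no difference beyond its spread. Its fold change for MS2 versus Con was 0.14 ± 0.08 (SE, limma p of 0.128). It was 0.19 without MS2 4 (p of 0.0339) and 0.20 without Con 15 (p of 0.0259).

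The variant B probeset read 8.99, 8.72, 8.63, 8.99 and 8.73 on Con 15 to Con 19, and 8.93, 9.06, 7.94, 9.17 and 8.85 on MS2 1, MS2 3, MS2 4, MS2 5 and MS2 7. It read 8.70, 8.62, 8.96, 8.55 and 8.90 on MS5 8, MS5 9, MS5 12, MS5 13 and MS5 14. A single array, MS2 4, lay far below all others, and MS2 was otherwise the highest group. The fold change was -0.02 ± 0.18 for MS2 versus Con and -0.05 ± 0.18 for MS5 versus MS2 (SE). Without MS2 4 these became 0.19 (limma p of 0.0783) and -0.26 (p of 0.0228), so the direction of the first turned with that array.

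Gnaz encodes Gz, a pertussis toxin-insensitive alpha subunit found mainly in neurons. Probe b read 9.87, 9.93, 9.71, 9.56 and 9.59 on Con 15 to Con 19, and 9.75, 9.83, 10.01, 10.04 and 9.97 on MS2 1, MS2 3, MS2 4, MS2 5 and MS2 7. On MS5 8, MS5 9, MS5 12, MS5 13 and MS5 14 it read 9.81, 10.03, 9.63, 9.88 and 9.88. The MS2 arrays sat toward the upper end of a shared range. MS2 versus Con gave 0.19 ± 0.09 (SE), with an unadjusted p of 0.0485 and an exact permutation p of 0.0952. It was 0.13 on slide 1 and 0.27 on slide 2, 0.17 without MS2 4 (limma p of 0.0975) and 0.12 without the 3 arrays that stood apart (p of 0.230). Leaving out 1 array at a time gave 0.15 to 0.24, with a p above 0.05 without any one of Con 17, Con 18, Con 19, MS2 4, MS2 5 or MS2 7. Probe a of the same gene gave 0.10 ± 0.08 (SE, limma p of 0.220), and over the 15 arrays the deviations of both probes from their group means had r = 0.71.

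Of the RGS genes, Rgs4 encodes a small, short-lived RGS protein that acts on Gi/o and Gq and is abundant in forebrain neurons. Probe a read 13.31, 12.96, 13.14, 12.83 and 12.90 on Con 15 to Con 19. It read 13.42, 13.17, 12.70, 13.04 and 13.41 on MS2 1, MS2 3, MS2 4, MS2 5 and MS2 7, and 13.76, 13.29, 13.04, 13.37 and 13.34 on MS5 8, MS5 9, MS5 12, MS5 13 and MS5 14. The MS5 arrays lay from the middle of the control range upward, and the MS2 mean lay between those of Con and MS5. MS5 versus Con gave 0.33 ± 0.15 (SE), a fold of 1.26, with an unadjusted p of 0.0408 and an exact permutation p of 0.0556. It was 0.47 on slide 1 (2 arrays against 3) and 0.29 on slide 2 (3 against 2), and 0.40 with the slide as a block (limma p of 0.00373). Without MS5 8 it fell to 0.23 (p of 0.122), and without MS5 9 it was 0.35 (p of 0.0497). Over all arrays left out in turn it ran from 0.23 to 0.41, with a p above 0.05 without any one of Con 16, Con 18, Con 19, MS5 8, MS5 13 or MS5 14. MS5 versus MS2, with the stress protocol in both groups, gave 0.21 ± 0.15 (SE, limma p of 0.174). With the slide as a block that difference was 0.28 (p of 0.0296).

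A linear trend over the doses of 0, 2 and 5 mg/kg was also tested. The pups at dose 0 were also the only ones without the stress protocol, so a slope spans stress as well as morphine. Rgs4 probe a had a slope of 0.07 (log2) per mg/kg with an unadjusted p of 0.0325, the single slope of 15 at a p under 0.05, where 3.97% of all probesets had one. Its adjusted p was 1.00.

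Probe b of Rgs4, which lies close by in the genome, did not pass that test. It was at 12.51 ± 0.31 in Con, 12.50 ± 0.56 in MS2 and 12.63 ± 0.24 in MS5 (SD, n = 5 each), and MS5 versus Con gave 0.12 ± 0.23 (SE, limma p of 0.612). It ranged from 11.65 on MS2 4 to 13.14 on MS2 5, and its deviations from the group means had r = 0.59 with those of probe a over 15 arrays. The interval of its MS5 versus Con difference, -0.37 to 0.61, includes the estimate of probe a.

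Rgs7 and Rgs9 belong to the R7 family, whose members are stable only in a complex with Gnb5 and are anchored to membranes by Rgs7bp or related proteins. Rgs7, the family member most widely expressed in brain, was at 11.42 ± 0.08 in Con, 11.43 ± 0.10 in MS2 and 11.48 ± 0.18 in MS5 (SD, n = 5 each). MS5 versus Con gave 0.06, with an interval from -0.10 to 0.23 (limma p of 0.432). Without MS5 12 it was 0.14 (p of 0.0450), without MS5 9 it was 0.02 and without Con 19 it was 0.03.

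Rgs9 is best known from the retina, in a short form, and from the striatum, in a long form that shapes responses to dopamine and opioids. It was the member that varied most, and arrays of the same group differed by more than the group means did. The variant 1 probe b read 12.06, 11.93, 12.02 and 12.18 on Con 15 to Con 18 and 14.62 on Con 19. It read 12.05, 12.06, 12.52, 14.72 and 12.03 on MS2 1, MS2 3, MS2 4, MS2 5 and MS2 7, and 14.76, 12.16, 13.38, 12.30 and 13.62 on MS5 8, MS5 9, MS5 12, MS5 13 and MS5 14. High arrays thus occurred in all 3 groups, 1 of 5 in Con, 1 of 5 in MS2 and 3 of 5 in MS5, and the extremes were 7.13-fold apart.

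The MS5 versus Con estimate for this probe was 0.68 ± 0.65 (SE), a fold of 1.60, with a 95% interval from -0.70 to 2.07, an unadjusted p of 0.310 and an exact permutation p of 0.302. On slide 1 the difference was 1.44 and on slide 2 it was -0.22, so the direction turned between slides. Without MS5 8 the estimate was 0.30 (p of 0.645), and without Con 19 it was 1.20 (p of 0.0570). MS5 versus MS2 gave 0.57 ± 0.65 (SE, limma p of 0.394), with 1.48 on slide 1 and -0.57 on slide 2, so that direction turned as well. Without MS5 8 it was 0.19 (p of 0.772), without MS2 5 it was 1.08 (p of 0.0849), and without MS2 4, MS2 5 and MS5 9 together it was 1.47 (p of 0.0399). That last setting was chosen after seeing the data. It takes out the highest and next highest MS2 arrays and the lowest MS5 array of this probe, so a larger difference was fixed in advance. The overlapping probe a followed it with r = 0.999, and the variant 2 probeset, at 7.65 ± 0.23 in Con, 7.72 ± 0.34 in MS2 and 7.76 ± 0.31 in MS5 (SD, n = 5 each), followed with r = 0.81 over a smaller range.

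Markers of the striatum moved with Rgs9 from array to array. The mean over 8 striatal markers (Drd1a, Drd2, Adora2a, Ppp1r1b, Penk, Pde10a, Tac1 and Gpr6) was 9.83 to 9.99 on Con 15 to Con 18 and 12.0 on Con 19. It was 9.85 to 10.1 on MS2 1, MS2 3, MS2 4 and MS2 7 and 12.2 on MS2 5. In the MS5 group it was 12.5 on MS5 8, 9.93 on MS5 9, 11.5 on MS5 12, 10.0 on MS5 13 and 11.4 on MS5 14. The same 5 arrays held the 5 highest values of Rgs9 and of 6 of the 8 markers, and 4 of the 5 highest values of the remaining 2. None of the 8 markers differed between groups at an unadjusted p under 0.05 (limma), all 8 had a higher mean in MS5 than in Con (median fold change of 0.77), and the part of this tissue in the Rgs9 values was not tested. In pooled tissue a difference in the number of cells of a type and a difference in RNA per cell cannot be told apart.

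**Figure D3:**
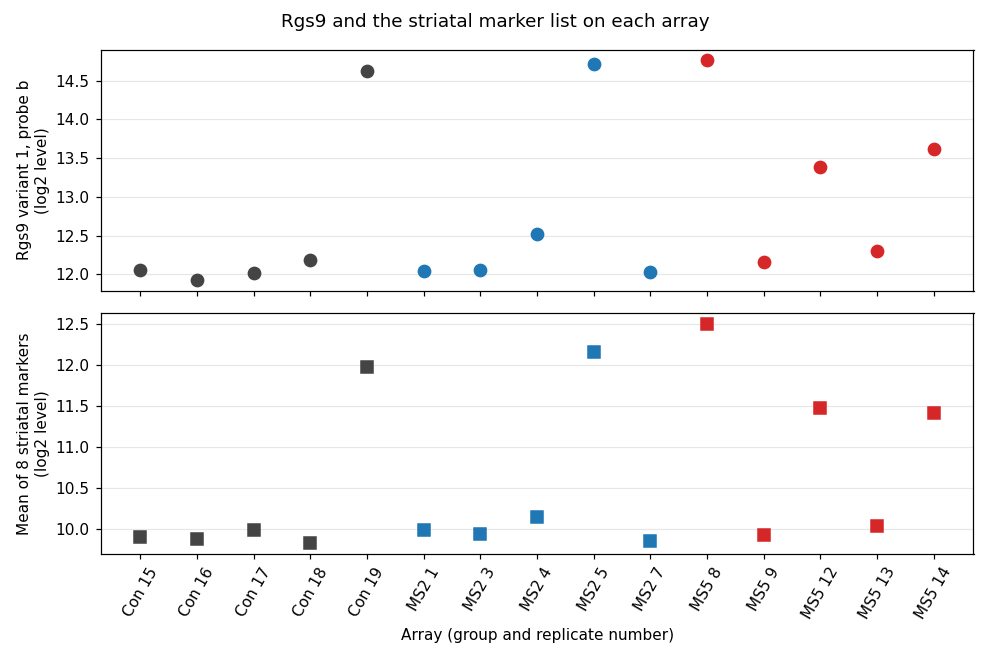
Level (log2) of Rgs9 variant 1 probe b (upper panel) and the mean level (log2) of 8 striatal markers (lower panel) on each of the 15 arrays, coloured by group (Con grey, MS2 blue, MS5 red). Con 19, MS2 5, MS5 8, MS5 12 and MS5 14 hold the 5 highest values in both panels.

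The beta-arrestins were the steadiest members. Arrb1, the form also called arrestin 2, was at 14.29 ± 0.04 in Con, 14.32 ± 0.10 in MS2 and 14.35 ± 0.05 in MS5 (SD, n = 5 each), and the whole range over 15 arrays was 1.16-fold. MS5 versus Con gave 0.06 with an interval from -0.04 to 0.16.

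Arrb2 encodes arrestin 3, the form whose loss in mice prolongs morphine antinociception. It read 11.48, 11.38, 11.31, 11.46 and 11.32 on Con 15 to Con 19, and 11.47, 11.47, 11.56, 11.55 and 11.51 on MS2 1, MS2 3, MS2 4, MS2 5 and MS2 7. On MS5 8, MS5 9, MS5 12, MS5 13 and MS5 14 it read 11.31, 11.34, 11.28, 11.41 and 11.54. MS2 arrays lay at or just above the top of the control range, and 4 of the 5 MS5 arrays lay below all MS2 arrays.

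MS2 versus Con gave 0.12 ± 0.05 for Arrb2 (SE), a fold of 1.09, with an unadjusted p of 0.0327 and an exact permutation p of 0.0317. MS5 versus MS2 gave -0.14 ± 0.05, a fold of 0.908, with an unadjusted p of 0.0178 and an exact permutation p of 0.0397, while MS5 versus Con gave -0.02 ± 0.05. These contrasts share the MS2 arrays and are not separate evidence. The direction was the same on both slides, at 0.07 and 0.21 for MS2 versus Con and at -0.13 and -0.17 for MS5 versus MS2. Without MS2 4, MS2 5 and MS5 9 the values were 0.09 (limma p of 0.164) and -0.10 (p of 0.155). Without MS2 4 alone they were 0.11 (p of 0.0676) and -0.13 (p of 0.0396). Over all arrays left out in turn the first ran from 0.10 to 0.15, with a p above 0.05 without any one of Con 16, Con 17, Con 19, MS2 4, MS2 5 or MS2 7, and the second from -0.18 to -0.12, with a p above 0.05 without MS5 12.

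The members differed more in their spread than in their response. The residual SD within groups was 0.07 for Arrb1 and 0.08 for Arrb2, at percentiles 5.38 and 9.90 of the 36283 probesets well above background on all arrays, whose median was 0.13. The alpha subunits other than Gnao1 variant B lay between 0.11 and 0.16. Rgs4 probe a was at 0.25, Rgs9 variant 2 at 0.30, Gnao1 variant B at 0.32 and Rgs4 probe b at 0.40, and the Rgs9 variant 1 probes were at 1.11 and 1.13, percentiles 99.8 and 99.9.

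**Figure D4:**
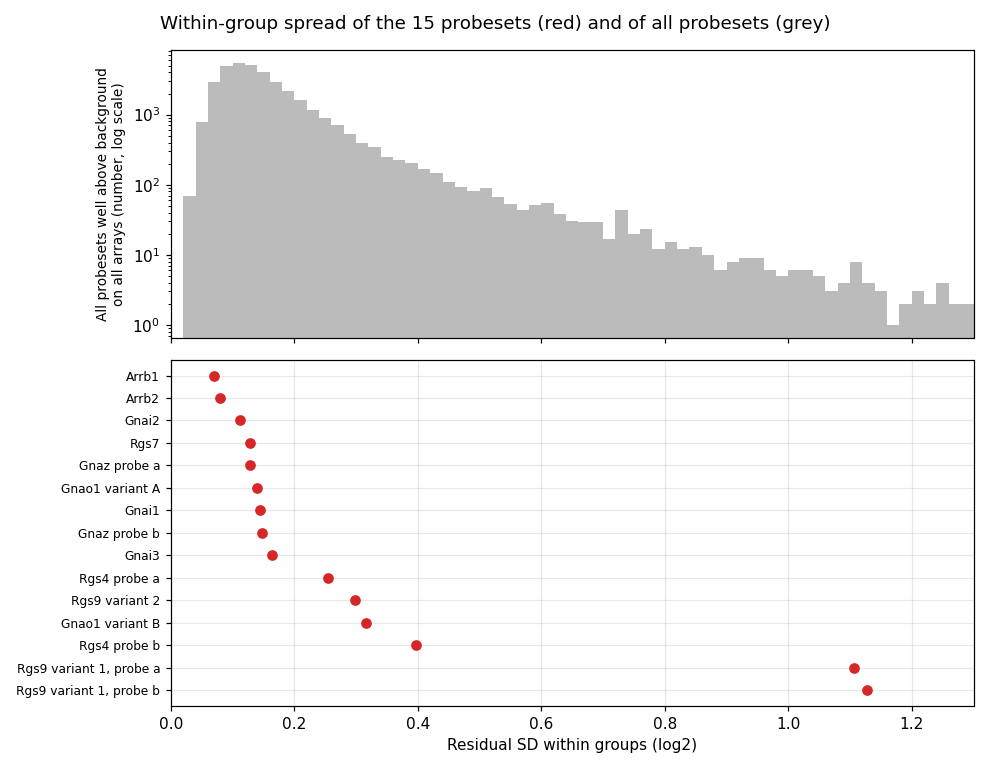
Residual SD within groups (log2, horizontal axis) of the 15 probesets (lower panel, red points) under the distribution of the same SD over the 36283 probesets well above background on all 15 arrays (upper panel, grey bars of width 0.02, number on a log scale, drawn up to 1.3). Arrb1 and Arrb2 lie at the steady end, and the Rgs9 variant 1 probes lie far in the upper tail.

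For each member, the genes whose levels followed it most closely over the 15 arrays (Pearson r of deviations from group means, 1 probeset per gene, 25529 genes compared) are given as a description, since all points share the same libraries. Each was picked as one of the largest of many r, and such picks run high by selection. Rgs9 had the closest companions, among them Crabp1 (r = 0.99) and Drd1a (0.98), of which the latter is in the striatal marker list. For Gnai1 they included Gprin1 (0.97) and Fam118a (0.95), for Gnai2 Lfng (0.94), Sdhc (0.93) and Apoe (0.92), and for Gnai3 Atp6v1a (0.91) and Tmem184c (0.90). Ltbp2 (0.95) followed Gnao1 variant B. BC037034 (0.89), Btbd7 (0.89) and B830017H08Rik (0.88) followed Gnaz probe a. Rgs4 probe a was followed by Tiaf2 (0.92) and Rhpn1 (0.90), and Rgs7 by Eid2 (0.89). Zbtb48 (0.85) and Brwd1 (0.84) followed Arrb1, and Twistnb (0.84) followed Arrb2. Of the 30 places, 10 went to transcripts without a gene symbol. With the 2 arrays farthest from the member's median left out, these r ran from 0.73 to 0.98.

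Few of the other genes of the pathway differed between groups. Of 70 other genes, each read by 1 probeset, 3 had an unadjusted p under 0.05 in MS2 versus Con (1 higher, 2 lower), where 4.03% of all genes did. In MS5 versus Con there were 2 (1 higher, 1 lower), where 4.21% of all genes did, and in MS5 versus MS2 there were 2 (both higher), where 3.93% of all genes did. None had an adjusted p under 0.05. The median fold change over the 70 was 0.0042, 0.05 and 0.01, beside -0.0046, -0.00061 and 0.0031 over all genes.

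The genes at that level included the partner and the anchor of the R7 family. Gnb5, the beta subunit that RGS7 and RGS9 need, was at 10.90 in Con, 10.67 in MS2 and 10.91 in MS5. MS2 versus Con gave -0.23 ± 0.11 (SE, limma p of 0.0454), MS5 versus MS2 gave 0.24 (p of 0.0397) and MS5 versus Con gave 0.0075. The contrasts with MS2 share its arrays and are not separate evidence. Rgs7bp, the membrane anchor, was at 9.92 in Con, 10.21 in MS2 and 10.19 in MS5, which gave 0.29 ± 0.12 (p of 0.0258) and 0.26 ± 0.12 (p of 0.0394) against Con. The 2 further Rgs7bp probesets were brighter, at mean levels of 13.1 and 15.5 against 10.1 for the one used. They gave -0.02 and 0.02 for MS2 and 0.03 and 0.13 for MS5, so the probes of that gene disagreed.

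Gng10, a gamma subunit, was at 13.02 in Con, 12.67 in MS2 and 12.99 in MS5. MS2 versus Con gave -0.35 ± 0.11 (SE, limma p of 0.00672), MS5 versus MS2 gave 0.32 (p of 0.0118) and MS5 versus Con gave -0.03. As for Gnb5, the contrasts with MS2 share its arrays and are not separate evidence. Those arrays include the one that correlated least with the others and the dim one. The Gng10 and Gnb5 differences without them are not given here. Plcb2, a phospholipase activated by beta-gamma, was dim at 6.46 in Con and 6.36 in MS5, a difference of -0.11 ± 0.05 (p of 0.0447).

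On the probeset used for each gene, the lists of other alpha subunits, other RGS genes and receptor kinases held no gene at that level. Of 10 other alpha subunits, 15 other RGS genes and 8 receptor kinases and visual arrestins, 0 had an unadjusted p under 0.05 in any of the 3 contrasts (limma). The smallest p in MS5 versus Con were 0.0855 for Gnas, the Gs alpha subunit (0.18, on a probeset well above background on 3 of 15 arrays), and 0.241 for Gnaq, the Gq alpha subunit (-0.09). In the other lists they were 0.226 for Gnb1 (0.07) and 0.271 for Gnb3 (0.19) among beta and gamma subunits, 0.138 for Rgs17 (0.26) and 0.146 for Rgs8 (0.30) among RGS genes, and 0.359 for Adrbk1 (0.04) and 0.376 for Grk5 (0.06) among receptor kinases. Ric8b, a chaperone of alpha subunits, gave 0.18 (p of 0.208), and Cacna1b, the N-type calcium channel that beta-gamma inhibits, gave 0.15 (p of 0.0583). Among the probesets not used, 2 had an unadjusted p under 0.05 in MS5 versus Con. A probeset of Gnal, the olfactory and striatal Golf alpha subunit, gave 0.35 (p of 0.0324) where the one used gave 0.18 (p of 0.448). The alternate Gnb1 probeset gave -0.13 (p of 0.0164), opposite in sign to the one used. Of the Gnas probesets not used, the brightest, at a mean level of 16.8, gave -0.02 (limma p of 0.894). The others gave 0.21 (p of 0.259) and 0.21 (p of 0.237).

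**Figure D5:**
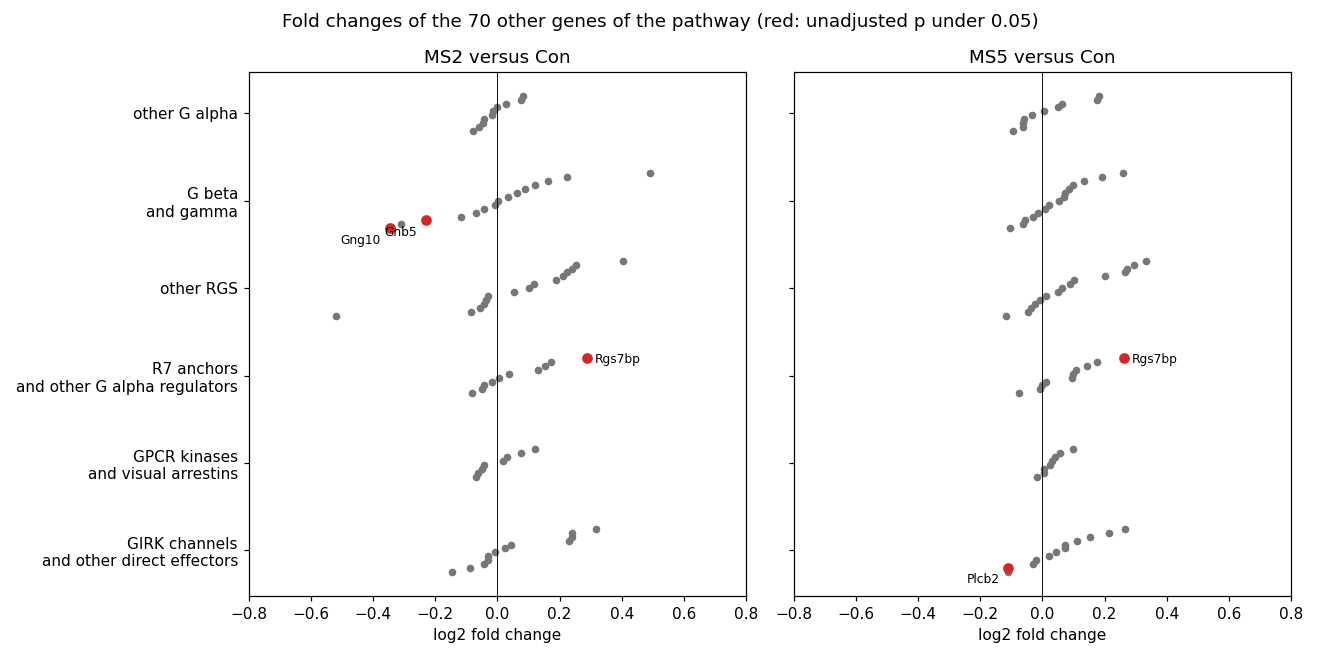
Fold change (log2) of each of the 70 other genes of the pathway in 6 lists, for MS2 versus Con (left) and MS5 versus Con (right). Red points, with names, have an unadjusted p under 0.05: Gng10, Gnb5 and Rgs7bp on the left and Rgs7bp and Plcb2 on the right.

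Some markers of neighbouring tissues differed between groups. In MS5 versus Con 8 of 10 choroid plexus markers were lower at an unadjusted p under 0.05 (median fold change of -1.28), 4 of 12 hypothalamic and thalamic markers were higher (median of 0.16) and 1 of 8 markers of blood and vessels was lower (median of -0.30), where 4.21% of all genes had such a p. The count was 0 of 12 for hippocampal neurons, 0 of 8 for microglia, 0 of 7 for astrocytes and 0 of 8 for oligodendrocytes (limma). The median fold changes of these lists were -0.19, 0.05, 0.01 and 0.22, and 11 of the 12 hippocampal neuron markers had a lower mean in MS5 than in Con. No marker had an adjusted p under 0.05. The choroid plexus mean was lowest on MS5 14 and MS5 9 (8.46 and 9.35), while MS5 8 and MS5 12 were at 11.1 and 11.4, inside the Con range of 10.9 to 11.8, and MS5 13 lay just below that range. The hypothalamic markers were Avp, Oxt, Trh and Sim1, and Sim1 was well above background on 1 of 15 arrays. In MS2 versus Con no marker had an unadjusted p under 0.05, and 11 of 12 hippocampal neuron markers were lower (median of -0.49). In MS5 versus MS2, 6 of 10 choroid plexus markers were lower at that p (median of -1.13), where 3.93% of all genes had one. Of the 12 hypothalamic and thalamic markers 1 was higher there, the dim Sim1 (0.15, limma p of 0.0307). The median over those 12 was -0.02, with 7 of 12 lower in MS5 than in MS2. The part of these tissues in the member values was not tested.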

How the data were processed

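Hippocampal RNA from 15 pups was hybridized to 1-colour Agilent arrays, 1 pup per array. The authors deposited the intensity of each spot from Agilent Feature Extraction 10.7.1.1 and a table of log2 values that they had background adjusted (normexp) and quantile normalized. From the mean signal and median local background of each spot, normexp (offset 50), quantile normalization over 62976 spots and log2 gave the levels. The 3671 control spots were dropped and spots of a probe were averaged to 55681 probesets. For the members these values equal the deposited log2 values within 5.0e-09. R 4.3.3 with limma 3.58.1 fitted 3 groups at once, with Benjamini-Hochberg adjustment over all probesets. Exact permutation tests were two-sided over 252 assignments (smallest p 0.00794). Intervals are 95%, from limma. The number of arrays limits the precision.

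A list gene was read by its probeset named A_51 or A_52, otherwise by the brightest. Named were all members, each list gene with an unadjusted p under 0.05 in a contrast, the 2 smallest p per list in MS5 versus Con, and the 3 most similar genes per member. Members and lists were chosen with earlier results of these data known. Scripts were tested on simulated data. 1 gene of the marker lists, which the striatal values leave out, and 1 gene of the pathway lists are not reported here by name. The 9 miR arrays were not used here.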

Additional observations from a re-analysis of the deposited data

Results flagged for a closer look

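Of 45 sets of 5 arrays (15 probesets in 3 groups), 5 held an array whose gap to its nearest neighbour, divided by the range of the group, was above 0.71, a limit that chance passes in about 1 of 20 sets. For Gnao1 variant B it was MS2 4 at 7.94, where the next lowest MS2 array was at 8.85. For Rgs9 variant 1 it was Con 19, at 14.61 on probe a and 14.62 on probe b, where the next highest Con array was at 12.22 and 12.18. In the MS2 group it was MS2 5, at 14.63 on probe a and 14.72 on probe b, where the next highest was MS2 4 at 12.49 and 12.52. The Rgs9 probes overlap, so these 4 sets stand for 2 arrays.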

How the results depend on the processing

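The count of members past 1.5-fold with an unadjusted p under 0.05 was 0 of 15 probesets in every contrast under every setting except 1, which was chosen after seeing the data: without MS2 4, MS2 5 and MS5 9 it was 2 in MS5 versus MS2, both of them Rgs9 variant 1 probes (1.43 and 1.47). That removal takes out the highest and next highest MS2 arrays and the lowest MS5 array of these probes. Of all 55681 probesets, 193 passed there, against 72 in the main fit. The counts at an unadjusted p under 0.05 were small and moved. In MS2 versus Con, the 3 probesets became 0 with a normexp offset of 0, 0 with the processed signal scaled to the 75th percentile and 1 (Arrb2) with only probesets well above background. With array weights and without those 3 arrays the count was 1, and in both cases it was Gnao1 variant A (0.19 and 0.23), which is none of the 3. In MS5 versus Con, 1 became 0 with the processed signal and 2 without the 3 arrays, which added Gnai2. In MS5 versus MS2, 1 became 0 with array weights, the offset of 0 or the processed signal, 2 with the slide as a block, which added Rgs4 probe a, and 2 without the 3 arrays, where Arrb2 gave way to the Rgs9 variant 1 probes. Leaving out 1 array at a time gave 0 to 4, 0 to 2 and 0 to 2, and for the dose slope 0 to 2 in place of 1.

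With 1 probeset per gene, the members' 2 of 10 in MS2 versus Con became 0 with array weights, the processed signal or without the 3 arrays. Their 1 in MS5 versus Con became 0 with the processed signal or the mean of all probesets and 2 without the 3 arrays, and their 1 in MS5 versus MS2 became 0 with array weights or the processed signal. Leaving out 1 array gave 0 to 2 in each. The 3, 2 and 2 of 70 pathway genes became 5, 1 and 2 with array weights and 5, 8 and 5 without the 3 arrays. The share of all probesets at an unadjusted p under 0.05 also rose in both of these settings, to the values at the end of the paragraph before. The 2 of MS5 versus Con became 1 with the processed signal or the brightest probeset. Leaving out 1 array gave 1 to 5, 0 to 3 and 1 to 4. The authors' own values changed no call. Among values with a p under 0.05 in either fit, 0 changed sign, but such values lie far from 0 and seldom can. Over all member fold changes, 41 of 450 changed sign when 1 array was left out. With array weights 8 of 45 did, and without the 3 arrays 9 of 45. The processed signal and the slide as a block each changed 1 of 45. The labels give neither litter nor experimental run, and the 3 groups of mRNA arrays share no replicate numbers, so no paired analysis was made. According to the paper, control and treated pups could be littermates, and the experiments were repeated to reach the group size. All tests here treat the pups as independent. The cause of these shifts was not tested, except that the filter on background changes only the pool of probesets from which limma borrows its variance. All 15 probesets were well above background on every array.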
